A study of Homo sapiens with 8 samples.

Results

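The 8 transcription factor genes described here are *SOX9*, *GATA6*, *PDX1*, *HNF4A*, *FOXA2*, *KLF5*, *PTF1A* and *ONECUT1*, 8 of 19974 protein-coding genes on the 23 chromosomes covered by the peak lists. They were listed by name as factors of the pancreatic lineages, and every H3K27ac peak that overlapped a gene or the 50 kb on either side of it was assigned to that gene. The rule itself uses no measured value, although earlier results of these data were known when the genes were listed.

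These factors act in a sequence as the pancreas forms and keeps its cell types. PDX1, SOX9, GATA6, FOXA2 and ONECUT1 work in the multipotent progenitors, SOX9 and ONECUT1 stay on in ducts, PTF1A drives the acinar cells that make digestive enzymes, PDX1 stays high in beta cells, and HNF4A and KLF5 act in many gut epithelia. In pancreatic tumors, GATA6 and HNF4A are known as factors of the classical type. H3K27ac, acetylation of lysine 27 of histone H3, marks active promoters and enhancers and is removed by histone deacetylases such as HDAC1.

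H3K27ac ChIP-sequencing was performed in MP2_HDAC1_OE and MP2_NTC, stable lines of MIA PaCa-2, a human pancreatic carcinoma line that the labels describe as epithelial. Both lines carry the lentiMPHv2 and lentiSAMv2 plasmids of a CRISPR activation system, with an sgRNA to *HDAC1* in MP2_HDAC1_OE and a non-targeting sgRNA in MP2_NTC. Each line had 2 H3K27ac samples and 2 control samples without an antibody. The labels do not say how many clones or cultures these samples come from. The authors deposited 1 list of reproducible peaks per line, so there are no replicate values, no test between the lines was possible and the depth behind a peak is unknown. A gene without a peak is therefore a gene without a listed peak, which does not show that the mark is absent.

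The MP2_HDAC1_OE list holds 25045 peaks and the MP2_NTC list 22569. Each peak has a signal value, which ran from 11.0 to 185 in MP2_HDAC1_OE and from 11.7 to 220 in MP2_NTC. Its scale between the lists is not known, so each signal is given with the percent of peaks of its own list that were weaker, called its rank. Peaks that shared 1 bp were merged into regions, which were unique to a line when all their peaks came from it. At *HDAC1*, the activated gene, the strongest MP2_HDAC1_OE peak (signal 91.6) stood above 93.9% of that list. It belonged to a shared region, where the MP2_NTC peak (44.1) stood above 40.4%. The strongest peak of MP2_NTC there (46.7, above 45.2%) lay in another region, unique to MP2_NTC.

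The promoters of markers for the labelled cell type were mixed. A promoter window reached from 2 kb outside to 1 kb inside the start of a gene, or of both its ends where no start is annotated. Of 5 epithelial markers 3 had a peak there, with *KRT18* and *CLDN4* in both lists and *KRT8* in MP2_HDAC1_OE, while *EPCAM* and *CDH1* had none. Of 4 mesenchymal markers 2 had one, *VIM* and *ZEB1*, both in both lists. None of the 4 acinar markers had a peak in the window, against 2 of 4 ductal markers (*KRT19* and *SOX9*), 1 of 3 endocrine markers (*PAX6*) and 1 of 2 blood markers. The blood marker was *SPI1*, whose window covers both gene ends, and *PTPRC* had no peak. Over all protein-coding genes the share with a promoter peak of either line was 48.8%, so most of these small counts lie near it and say little about the markers.

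Promoter sequences of 4 of the 8 genes are in the RefSeq table used (GRCh38.p14, 250 bases before to 50 bases after a start). They hold 6 windows, none of which overlapped a peak of either line. Printed first are the 3 windows rich in CpG, because most windows of that kind carry the mark in these lists, and then the start of the non-coding gene *LINC00543*, because it lies under the only region assigned to *PDX1*. Capitals in the first 3 mark the CCAAT box (CCAAT), the GC box (GGGCGG) and the E-box (CACGTG), each read on both strands. In *LINC00543* they mark the 118 bases under the MP2_HDAC1_OE peak. They begin at the listed edge of a peak 820 bp wide, which need not be a limit of the mark. The windows are *GATA6* on chr18:22169339-22169638 (plus strand), the downstream start of *KLF5* on chr13:73058755-73059054 (plus strand), *ONECUT1* on chr15:52790287-52790586 (minus strand) and *LINC00543* on chr13:27953276-27953575 (plus strand).
GATA6: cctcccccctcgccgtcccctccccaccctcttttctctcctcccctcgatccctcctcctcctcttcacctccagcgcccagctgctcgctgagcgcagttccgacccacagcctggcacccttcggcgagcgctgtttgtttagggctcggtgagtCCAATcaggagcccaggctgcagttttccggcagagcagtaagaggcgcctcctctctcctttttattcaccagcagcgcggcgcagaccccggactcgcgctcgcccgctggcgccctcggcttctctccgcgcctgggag
KLF5: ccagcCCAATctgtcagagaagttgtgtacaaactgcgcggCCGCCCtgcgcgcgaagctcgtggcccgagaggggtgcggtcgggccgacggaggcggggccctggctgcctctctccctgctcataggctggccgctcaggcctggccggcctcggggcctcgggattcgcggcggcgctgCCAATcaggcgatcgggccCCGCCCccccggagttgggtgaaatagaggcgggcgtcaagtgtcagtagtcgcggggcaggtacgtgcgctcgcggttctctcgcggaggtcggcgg
ONECUT1: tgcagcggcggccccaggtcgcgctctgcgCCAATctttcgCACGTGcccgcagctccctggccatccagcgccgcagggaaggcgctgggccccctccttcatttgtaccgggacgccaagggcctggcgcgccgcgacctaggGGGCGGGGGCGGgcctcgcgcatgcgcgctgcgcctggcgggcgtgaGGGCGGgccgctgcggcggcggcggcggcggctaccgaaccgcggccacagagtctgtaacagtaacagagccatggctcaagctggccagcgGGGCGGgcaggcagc
LINC00543: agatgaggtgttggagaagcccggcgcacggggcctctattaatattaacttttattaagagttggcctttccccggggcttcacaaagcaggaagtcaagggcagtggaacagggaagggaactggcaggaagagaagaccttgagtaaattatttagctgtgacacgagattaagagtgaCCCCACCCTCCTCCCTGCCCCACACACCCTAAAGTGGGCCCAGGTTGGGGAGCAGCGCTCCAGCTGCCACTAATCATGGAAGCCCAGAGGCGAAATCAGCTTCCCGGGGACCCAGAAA

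H3K27ac was listed near few of the 8 factor genes. An MP2_HDAC1_OE peak lay within 50 kb of 3 of them, *SOX9*, *PDX1* and *HNF4A*, while 67.9% of all protein-coding genes had such a peak. An MP2_NTC peak lay within 50 kb of 1, *HNF4A*, against 67.4% of all genes. The progenitor factors *GATA6*, *FOXA2* and *ONECUT1*, the epithelial factor *KLF5* and the acinar factor *PTF1A* had no peak of either line, 5 of 8 genes against 28.3% of all genes. The windows held 6 peaks of MP2_HDAC1_OE and 3 of MP2_NTC in all.

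**Figure D1:**
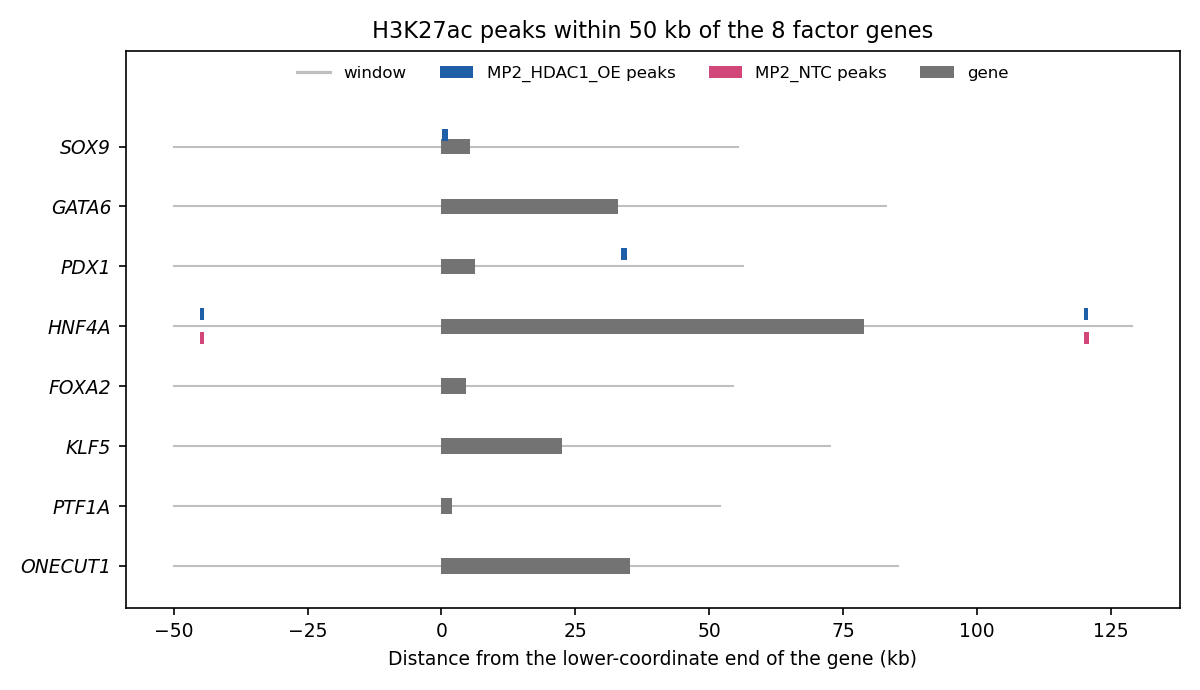
The windows of the 8 genes, with the distance from the lower-coordinate end of each gene in kb on the horizontal axis. Grey bars are genes, thin lines the windows of 50 kb on either side, blue bars MP2_HDAC1_OE peaks and pink bars MP2_NTC peaks. Peaks are seen at *SOX9* and beyond *PDX1* in blue only, on both sides of *HNF4A* in both colors, and nowhere in the other 5 windows.

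Regions unique to MP2_HDAC1_OE lay in the windows of 2 genes, *SOX9* and *PDX1* (36.8% of all genes had one). No gene had a region unique to MP2_NTC (33.2% of all genes had one), and 1 gene, *HNF4A*, had shared regions (61.4%). *SOX9* was the only one of the 8 with a peak in its promoter window or in the gene itself, against 48.8% of all genes with a promoter peak of either line. That promoter peak was listed in MP2_HDAC1_OE alone, a class with 6.4% of all genes. The opposite class, a promoter peak in MP2_NTC alone, held 0 of the 8 genes and 5.35% of all genes.

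*SOX9* (gene ID 6662), the HMG-box factor of progenitors and ducts, spans 72121020 to 72126416 on chromosome 17 of GRCh38. In MP2_HDAC1_OE its first kb carried a pair of overlapping peaks. The stronger one (72121155 to 72121974, signal 47.7) was above 52.4% of the MP2_HDAC1_OE list and had its summit 545 bp inside the lower end of the gene. A 95% Wilson interval of 51.8% to 53.1% treats the peaks of the list as independent draws, although peaks can overlap. It does not cover other sources of error, and among non-overlapping intervals the rank was 39.3%. The weaker one (72121385 to 72122204, signal 22.0) was above 12.2%, with its summit 775 bp inside. Together they form a region of 1050 bp that is unique to MP2_HDAC1_OE. Thus the mark at *SOX9* was of middle strength within the list, and it stood above 65.3% of the 5337 regions unique to MP2_HDAC1_OE, whose strongest peaks had a median rank of 41.6%. MP2_NTC had no peak within 50 kb of *SOX9*, and its nearest was 268 kb away.

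The protein-coding gene after *SOX9* is *SLC39A11*, 520 kb away, and most of the H3K27ac of this interval was also listed in MP2_HDAC1_OE. The stretch contains several long non-coding RNA genes. From 1 Mb below *SOX9* up to *SLC39A11* there were 9 peaks of MP2_HDAC1_OE and 1 of MP2_NTC, and they formed 5 regions unique to MP2_HDAC1_OE, 0 unique to MP2_NTC and 1 shared. The 1 Mb on the lower side held no peak, so *SOX9* itself was the first region, and the other 5 lay between 217 kb and 296 kb from its lower end.

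The region at 217 kb (72337995 to 72339854) was the widest, with 3 MP2_HDAC1_OE peaks of signal 12.8, 18.7 and 40.3 over 1860 bp. Its strongest peak ranked above 37.5% of the list. Every peak of the interval was 820 bp wide, so this length reflects 3 overlapping peaks of equal width. The region at 266 kb (72386869 to 72387688) was a single peak with a signal of 52.9 and a rank of 61.5%. It was the highest-ranked peak of the interval, above the promoter peak itself, and neither region overlapped an annotated gene. The shared region at 273 kb (72394130 to 72394986) had a signal of 47.4 in MP2_HDAC1_OE, above 51.9% of that list, and 27.9 in MP2_NTC, above 16.6%. This was the only site of the interval with a peak in both lines, and its rank was lower in MP2_NTC. Beyond it, the regions at 287 kb (72407999 to 72408818) and 296 kb (72416698 to 72417517) lay inside *LINC00673*, a long non-coding RNA gene from 72403322 to 72592804. Their signals were 14.4 and 38.0, above 3.37% and 32.5% of the MP2_HDAC1_OE list. The first of these is among the weakest peaks of the list. No measurement here ties any of these regions to *SOX9* rather than to another gene.

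**Figure D2:**
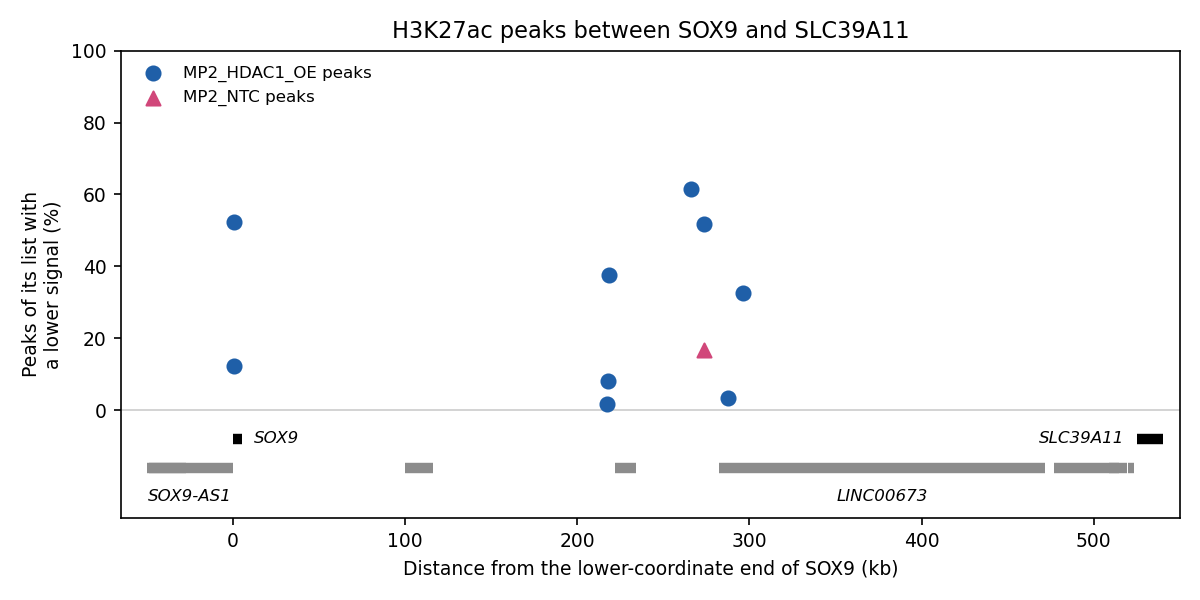
Peaks from *SOX9* to *SLC39A11*, with the distance from the lower-coordinate end of *SOX9* in kb on the horizontal axis and the percent of peaks of the same list with a lower signal on the vertical axis. Circles are MP2_HDAC1_OE peaks, triangles MP2_NTC peaks, black bars protein-coding genes and grey bars long non-coding RNA genes. The 9 circles fall at the gene and between 217 kb and 296 kb, and the single triangle lies beside the circle at 273 kb, at a rank of 16.6%.

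The pattern of the *SOX9* window, 1 region unique to MP2_HDAC1_OE and no other, was shared by many genes. Of all protein-coding genes, 708 (3.54%) had 1 region unique to MP2_HDAC1_OE and no other within 50 kb, and for 332 of these it lay at the promoter. The 5 genes closest to *SOX9* over 5 values (the counts of each class of region and the rank of the strongest peak in each of the 2 lists) were *EFHB*, *RAB5A*, *NSMCE2*, *WASHC5* and *CPN1*, with ranks of 52.2% to 52.7%. *EFHB* and *RAB5A* are neighbours counted at the same place, as are *NSMCE2* and *WASHC5*, and *CPN1* had its region away from the promoter.

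*PDX1* (gene ID 3651), the homeodomain factor of the early pancreas and of beta cells, spans 27920000 to 27926313 on chromosome 13. It had no peak in the gene or at its ends. In MP2_HDAC1_OE 2 overlapping peaks lay 27.1 kb above it, the stronger (27953458 to 27954277) with a signal of 48.9 and a rank of 54.6% and the weaker (27953810 to 27954629) with a signal of 22.7 and a rank of 13.1%. They formed a region unique to MP2_HDAC1_OE that ranked above 67.9% of all such regions. This region was very like that at *SOX9* in signal, but its place was different. It overlapped the start of *LINC00543*, printed above, and was closer to the intestinal homeodomain gene *CDX2* (6289 bp) than to *PDX1*. It was also the only region between the neighbours *GSX1* and *CDX2*, an interval of 166 kb. The nearest MP2_NTC peak was 212 kb from *PDX1*, at *PAN3*, with a signal of 82.2 and a rank of 86.1%.

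*HNF4A* (gene ID 3172), a nuclear receptor of liver, gut and pancreas, spans 44355699 to 44434596 on chromosome 20 and had peaks of both lines in its window, all of them at other genes. Below it, 44.3 kb away, a shared region overlapped *FITM2*, with a signal of 41.9 in MP2_HDAC1_OE (44310603 to 44311422, above 40.8%) and 43.3 in MP2_NTC (44310571 to 44311390, above 38.8%). The ranks at *FITM2* were close. Above it, 41.0 kb away, a second shared region overlapped *TTPAL* (44475603 to 44476626). There MP2_HDAC1_OE had 1 peak, with a signal of 39.0 and a rank of 34.6%, and MP2_NTC had 2, with signals of 68.2 and 43.4 and ranks of 75.5% and 39.0%. At *TTPAL* the rank was thus higher in MP2_NTC, the opposite of the shared region beyond *SOX9*. Neither of the 2 annotated starts of *HNF4A* overlapped a peak.

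The other 5 factors lay far from any listed H3K27ac. For *GATA6*, a zinc finger factor of endoderm, the nearest peak was 428 kb away in both lists, at *MIB1*. For *KLF5*, a zinc finger factor of proliferating epithelia, it was 273 kb away in both, at *DIS3* and *PIBF1*. For *ONECUT1*, a cut homeodomain factor of progenitors and ducts, it was 186 kb away in both, at *ARPP19*. All of these sites are shared regions at other genes, and the same held for *FOXA2*, a pioneer factor of endoderm, whose nearest peak was 764 kb away in both lists, beside *NXT1*. *PTF1A*, the acinar bHLH factor, was the exception, with its nearest peak 851 kb away in MP2_HDAC1_OE, near *SPAG6*, and 95.8 kb away in MP2_NTC, in *MSRB2*. That MP2_NTC peak (23095661 to 23096480 on chromosome 10) was weak, with a signal of 23.0 and a rank of 11.7%, and belonged to a region unique to MP2_NTC.

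Between the neighbouring protein-coding genes on both sides, none of these 5 factors had a peak of either line. The peak-free intervals were 543 kb long at *GATA6*, 1030 kb at *FOXA2*, 670 kb at *KLF5*, 79.9 kb at *PTF1A* and 804 kb at *ONECUT1*. Over all protein-coding genes, the median distance to the nearest peak was 4.37 kb in MP2_HDAC1_OE and 5.67 kb in MP2_NTC. Over the 8 factors it was 229 kb and 240 kb. Their order by distance in MP2_HDAC1_OE was *SOX9*, *PDX1*, *HNF4A*, *ONECUT1*, *KLF5*, *GATA6*, *FOXA2* and *PTF1A*, and in MP2_NTC *HNF4A* and *PTF1A* came first. The distance in MP2_HDAC1_OE was larger than that of 84.0% of genes for *ONECUT1*, 88.1% for *KLF5* and 92.1% for *GATA6*. For *FOXA2* this share was 96.1% and for *PTF1A* 96.6%. In MP2_NTC the shares were 83.8% for *ONECUT1*, 87.8% for *KLF5*, 91.8% for *GATA6* and 95.8% for *FOXA2*, but only 75.5% for *PTF1A*.

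**Figure D3:**
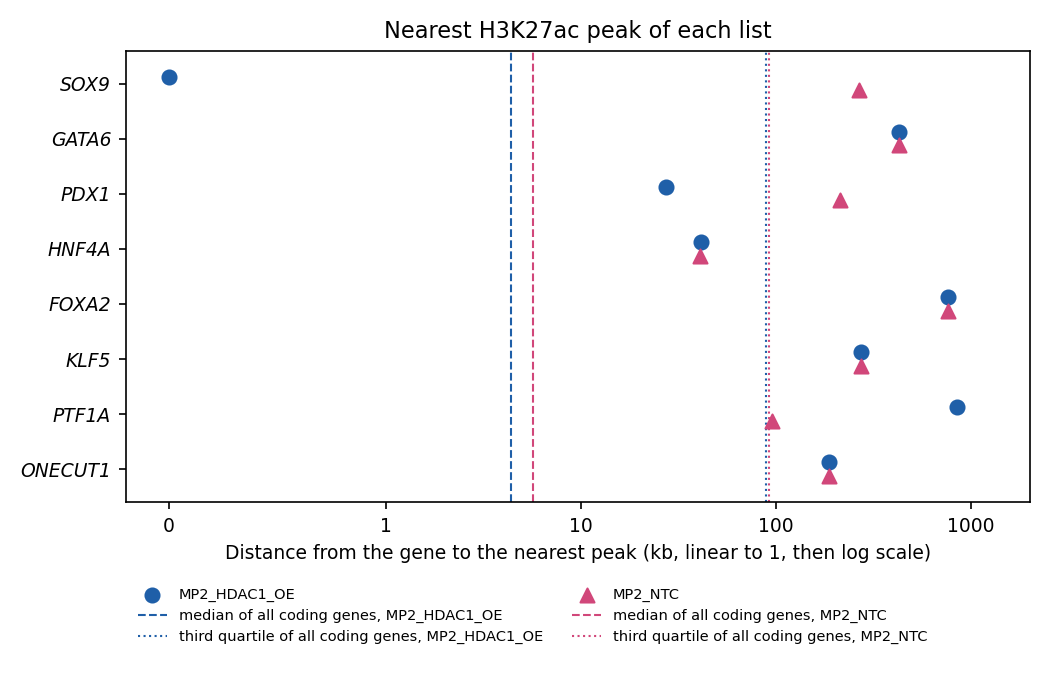
Distance from each of the 8 genes to the nearest peak of each list, in kb on an axis that is linear up to 1 and logarithmic beyond. Circles are MP2_HDAC1_OE and triangles MP2_NTC, and the dashed and dotted lines are the median (4.37 kb and 5.67 kb) and the third quartile (89.2 kb and 92.6 kb) of all protein-coding genes. Circle and triangle lie together for 5 genes and apart for *SOX9*, *PDX1* and *PTF1A*.

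The sequence of these promoters was compared with their lack of peaks. Among 22010 promoter windows of 15710 protein-coding genes, 40.1% overlapped a peak of either line. The ratio of observed to expected CpG, which is high in CpG islands, had a median of 0.861 in windows with a peak and 0.487 in windows without one. A ratio of at least 0.6 was found in 13668 windows, of which 58.3% had a peak, against 10.3% of the rest. *GATA6* had a ratio of 0.824, the downstream start of *KLF5* 0.978 and *ONECUT1* 0.927, and all 3 windows printed above were without a peak. The other windows were poor in CpG. *HNF4A* had ratios of 0.409 and 0.364 at its starts, the upstream start of *KLF5* 0.331 and *LINC00543* 0.367. The *LINC00543* window was the one with a peak, but it was chosen because it lies under that peak. It is also not among the windows of protein-coding genes that gave the shares above, so it cannot be set against them.

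The CCAAT box was found once in the *GATA6* window, in 2 places in the downstream *KLF5* window and once in that of *ONECUT1*, and 34.7% of all promoter windows hold it. The GC box, in 56.3% of all windows, occurred 2 times at *KLF5* and 4 times at *ONECUT1*, and the E-box, in 8.32%, once at *ONECUT1*. None of the marked motifs overlap each other. Also searched were TATAAA (9.49% of all windows), the AP-1 motif TGANTCA (6.16%), the SOX motif ACAAAG (13.6%) and the GATA motif AGATAA (7.9%), which do not occur in these 3 windows. ACAAAG occurs once in the *LINC00543* window. These matches describe the letters of the windows and not bound sites.

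**Figure D4:**
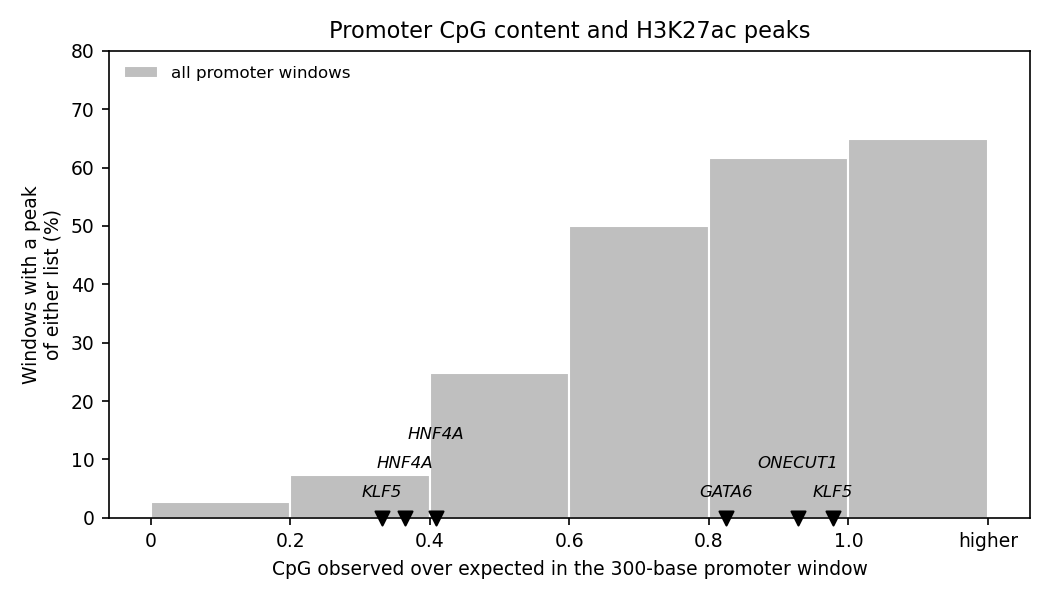
Percent of promoter windows of protein-coding genes with a peak of either line, by the ratio of observed to expected CpG in the 300-base window (bars, the last bar holding all ratios of 1.0 or more). Black triangles on the horizontal axis mark the 6 windows of *KLF5*, *HNF4A*, *GATA6* and *ONECUT1*, none of which had a peak. The bars rise from 2.76% to 64.8%, and 3 of the triangles stand under the bar of 61.7%.

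Other genes of the pancreatic lineages were taken from 4 lists of 34 genes in all. A promoter peak of either line was found at 9 of them (26.5%, against 48.8% of all genes). Of these, 5 had one in both lists, *KRT19* among them with its peaks at opposite ends of the gene. Another 3 had one in MP2_HDAC1_OE alone and 1 in MP2_NTC alone, classes with 6.4% and 5.35% of all genes. Both small counts lie near these shares and say little about the listed genes. Among 10 further progenitor and ductal factors, 4 had a promoter peak. *HES1*, a target of Notch signalling, had one in MP2_HDAC1_OE alone, with a signal of 51.9 and a rank of 60.0%. An MP2_NTC peak lay outside that window but only 2142 bp from *HES1*, and 3 lay within 50 kb. *HHEX*, a homeodomain factor of the foregut, had one in both lists, at 72.5 (83.8%) in MP2_HDAC1_OE and 61.7 (68.3%) in MP2_NTC. *MNX1*, a homeodomain factor of the pancreatic bud, also had one in both, at 66.1 (78.3%) and 75.6 (81.7%), over the antisense gene *MNX1-AS1*. *FOXA3*, a forkhead relative of *FOXA2*, had 76.3 (86.4%) and 118 (97.2%), but these peaks overlap its neighbour *SYMPK*.

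None of the 8 acinar factors and enzymes had a promoter peak in either line, against 48.8% of all genes. The same was the case for *PTF1A*. Within 50 kb, 5 of the 8 had a peak in MP2_HDAC1_OE and 4 in MP2_NTC, against 67.9% and 67.4% of all genes, so the MP2_HDAC1_OE count was near the share of all genes. *GATA4*, the relative of *GATA6*, named here after its values were seen, had peaks inside the gene in both lists (1 in MP2_HDAC1_OE and 2 in MP2_NTC).

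Of 10 endocrine factors, 3 had a promoter peak, against 48.8% of all genes, and each had it in a single line. Over all genes, 6.4% had one in MP2_HDAC1_OE alone and 5.35% in MP2_NTC alone. *PAX6* had a signal of 40.0 (36.6%) and *MAFA*, a factor of mature beta cells, of 42.5 (42.0%), both in MP2_HDAC1_OE. Both ranks were below that of the *SOX9* promoter peak, and 7 of the 10 factors had no promoter peak.

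Among 6 genes of duct cell function, 2 had a promoter peak of either line, against 48.8% of all genes, and both had peaks of both lists there. Such a small count says little about duct genes. *MUC1*, a mucin of duct surfaces, had 65.8 (78.1%) in MP2_HDAC1_OE and 84.8 (87.4%) in MP2_NTC. *KRT19*, a duct keratin, had 42.8 (42.8%) and 18.6 (6.86%), but at opposite ends of the gene and so in different regions. It has no annotated start, so both ends stood in, and the peaks of the 2 lists cannot both be at its start. The duct keratin *KRT7*, also named after its values were seen, had no promoter peak. Its window held 6 peaks in 4 regions unique to MP2_HDAC1_OE and none of MP2_NTC. Over all genes, 36.8% had at least 1 region unique to MP2_HDAC1_OE within 50 kb, with or without MP2_NTC peaks. That is not the share of genes with a window like that of *KRT7*. *KRT7* was the most one-sided gene of this list. The *KRT19* window held 4 regions unique to MP2_HDAC1_OE and 3 unique to MP2_NTC, that of *MUC1* 2 and 4, and the remaining genes had no peak.

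**Figure D5:**
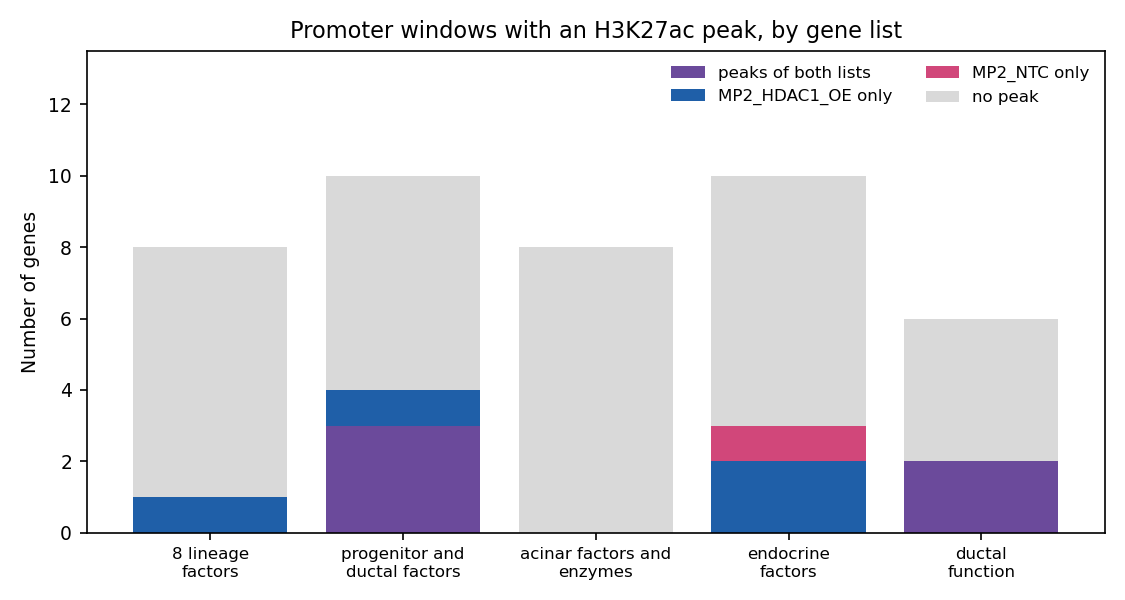
Number of genes (vertical axis) with a promoter peak in both lists, in MP2_HDAC1_OE only, in MP2_NTC only or in neither, for the 8 lineage factors and the 4 other lists of 10, 8, 10 and 6 genes. The bar of the 8 factors has 1 gene in blue (*SOX9*), and the bar of the acinar genes has none in color. Both ends of a gene stood in where no start is annotated, as for *SOX9* and *KRT19*.

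These values compare 1 list with 1 list. Whether the peaks at *SOX9* and near *PDX1* would differ between other cultures of these lines was not tested.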

How the data were processed

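H3K27ac ChIP-sequencing reads (75 bp) were processed by the authors with ENCODE protocols, and the submitters' processing notes name BWA 0.7.12, Picard 1.88 and hg38. The peak caller is not given in the sources used here. The authors deposited 1 peak list for MP2_HDAC1_OE and 1 for MP2_NTC, each pooled over 2 H3K27ac samples, with a score, a signal value and a −log10 significance per peak. The signal was used for ranks within a list, the score runs from 540 to 1000 and was not used, and the −log10 values were not used. The lists hold no read counts, so depth is unknown, and no values of the control samples were used here.

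Genes and promoter starts came from RefSeq tables (GRCh38.p14). The comparisons had been set for annotated starts, but 4161 of 19974 protein-coding genes (*SOX9*, *PDX1*, *FOXA2* and *PTF1A* among them) had no start in the table used, so both ends of the gene stood in. Intervals to neighbouring genes were limited to 1 Mb. The rank of the *SOX9* promoter peak is given with a 95% Wilson interval, and other shares have none.

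The genes named are the 8 factors, *HDAC1*, genes nearest to a peak of a factor, listed genes with a promoter peak in a single line, up to 4 per list with the strongest promoter peaks, and the 5 genes most like *SOX9*. The values of 1 listed gene are not reported here. Members and lists were chosen with earlier results of these data known. Region calls were tested on simulated data. Python 3.11.15, numpy 2.4.6, pandas 2.3.3 and matplotlib 3.10.9 were used.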

Additional observations from a re-analysis of the deposited data

How the results depend on the processing

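Of 48 alternatives tried for 13 results, 33 kept the value close to the reported one and 15 moved it. Reversals of a direction were not scored. Another 3 gave no value because *PDX1* and *HNF4A* have no peak within 20 kb. Windows of 20 kb left 1 gene (*SOX9*) with an MP2_HDAC1_OE peak and 1 with a region unique to that line, 0 with an MP2_NTC peak and 0 shared regions. Windows of 100 kb gave 2 genes with an MP2_NTC peak (*PTF1A* was added), 1 region unique to MP2_NTC and 4 shared regions. The strongest peaks in the window of *HNF4A* then ranked above 98.8% (MP2_HDAC1_OE) and 93.4% (MP2_NTC). The higher rank there thus passed from MP2_NTC to MP2_HDAC1_OE. Single peaks that had to overlap by 50% of both gave 4 peaks unique to MP2_HDAC1_OE in the windows, 2 of them at *SOX9*, which are the same places counted by peak. Ranked among non-overlapping intervals, where each takes its strongest peak, *SOX9* stood above 39.3%, *PDX1* above 41.6% and *HNF4A* above 27.3% in MP2_HDAC1_OE and 66.2% in MP2_NTC, against 52.4%, 54.6%, 40.8% and 75.5% among peaks.

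Chosen after seeing the data were the alternatives for the interval beyond *SOX9* and for the other lists. The 5 regions unique to MP2_HDAC1_OE numbered 4 with equal numbers of peaks in both lists and 5 with the 75% of peaks with the highest signal, where the weak region in *LINC00673* was lost and the shared region lost its MP2_NTC peak. The 9 listed genes with a promoter peak became 7 with windows of 1 kb on either side. No paired analysis was possible because the samples of a line were pooled into 1 list, which also means that no sample could be left out.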

Other observations

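The interval between *SOX9* and *SLC39A11* was compared with other long gaps between protein-coding genes, a comparison chosen after its peaks were seen. Of 703 gaps of at least 500 kb, 243 held any region, and the median number of unique regions was 0 for both lines. The gap of 520 kb beyond *SOX9* held 4 regions unique to MP2_HDAC1_OE, 0 unique to MP2_NTC and 1 shared. At least as many regions unique to MP2_HDAC1_OE were found in 34 gaps, 4.84% of the 703. All 34 are among the 243 gaps with any region, so their share of those is higher. Of the 34 gaps, 4, this one included, had none unique to MP2_NTC. In the other direction, 18 gaps held at least as many regions unique to MP2_NTC, and 0 of them were without a region unique to MP2_HDAC1_OE. These counts describe the lists, which differ in length, and were not tested.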
